A study of Drosophila melanogaster with 6 samples.

Results

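Non-coding RNAs were followed here in adult heads of Drosophila melanogaster with a mutated Top3b gene, which encodes a topoisomerase able to act on RNA as well as DNA, to ask which of these RNAs differ from wild type. The members were all probes on the array that carry a RefSeq non-coding RNA identifier and are not controls, except those for roX1 and roX2. They numbered 266 of 32162 probes and carried 225 identifiers for 217 genes. A RefSeq gene table (Release 6 assembly) named 183 of the genes, with 223 probes, and the other 34, with 43 probes, are known here by their identifier alone. The groups were 3 head samples of the Top3b26 mutant and 3 of the wild-type stock W1118 (WT). Top3b26 was made by remobilizing a P-element, both groups share the W1118 strain background, and all flies were adult. Heads were obtained by freezing and sieving whole flies, each group is 1 stock, and the mix of sexes is not given in the sources used here. RNA of each sample, prepared independently, was labeled with Cy3 and hybridized to 1 Agilent array with 60-base probes. Slide 1 held Top3b26 1, WT 1 and WT 2, and slide 2 held Top3b26 2, Top3b26 3 and WT 3.

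Long non-coding RNAs are transcripts that are spliced or capped like messenger RNAs but encode no known protein, and in flies several act in the nucleus, where some scaffold proteins and others host microRNAs or small nucleolar RNAs in their introns. Antisense RNAs are read from the strand opposite a coding gene and can pair with its messenger RNA. Small nuclear RNAs form the spliceosome, and small nucleolar RNAs guide the chemical modification of ribosomal RNA. Topoisomerase 3-beta is known to bind messenger RNAs, and some long non-coding RNAs are, like these, capped and polyadenylated.

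Values are log2 signals of each array after the authors' kind of z-transformation, rescaled so that a difference is on a log2 scale. A level of 0 is the mean of an array, and a negative level lies below it. The lowest level of a probe well above background was between -4.60 on Top3b26 3 and -3.33 on Top3b26 2 among Top3b26 arrays, and between -4.38 on WT 1 and -3.64 on WT 2 among WT arrays. The median signal ran from 279 on Top3b26 2 to 1604 on Top3b26 3, against 461 to 1050 on WT arrays, and no spot was saturated. The number of members well above background was also lowest on Top3b26 2, at 143, and highest on Top3b26 3, at 208, against 155 to 187 on WT arrays. The fixed markers of neurons, glia, photoreceptors and other tissues were not named among the probes, nor was Top3b itself, so neither the tissue label nor the mutation was checked with them. Probes named after cDNA clones of adult heads (224 of 279 tested) had median levels of 1.08, 1.38 and 0.54 on Top3b26 1, 2 and 3 and of 1.02, 1.24 and 1.30 on WT 1, 2 and 3. Probe sequences were not used here, so signal from an overlapping gene on the same strand cannot be told apart from the non-coding RNA's own. In whole heads, fewer cells of a type and less RNA per cell cannot be told apart.

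The structural RNAs were measured on every array, whereas 14 of 71 antisense RNA probes were above background on none. A probe was tested where it was well above background on all 3 arrays of at least 1 group, which held for 161 of the 266 members (60.5%) and for 71.6% of all probes. Of the members, 125 were well above background on all 6 arrays, 138 on all Top3b26 arrays and 148 on all WT arrays, and 43 on no array. All 5 small nuclear RNA probes, all 5 small nucleolar or Cajal body RNA probes and both probes for other structural RNAs were well above background on all 6 arrays. Of 139 long non-coding RNA probes 83 were tested (59.7%), of 71 antisense RNA probes 30 (42.3%), and of 43 unnamed probes 35 (81.4%). lncRNA:bxd and lncRNA:iab8, which are known from the bithorax complex of homeotic genes, were above background on 0 arrays. The sleep-related lncRNA:yar was above background on Top3b26 2 alone, at -1.46 there, against -5.26 and -6.85 on the other Top3b26 arrays and -4.61 to -6.33 on WT arrays.

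**Figure D1:**
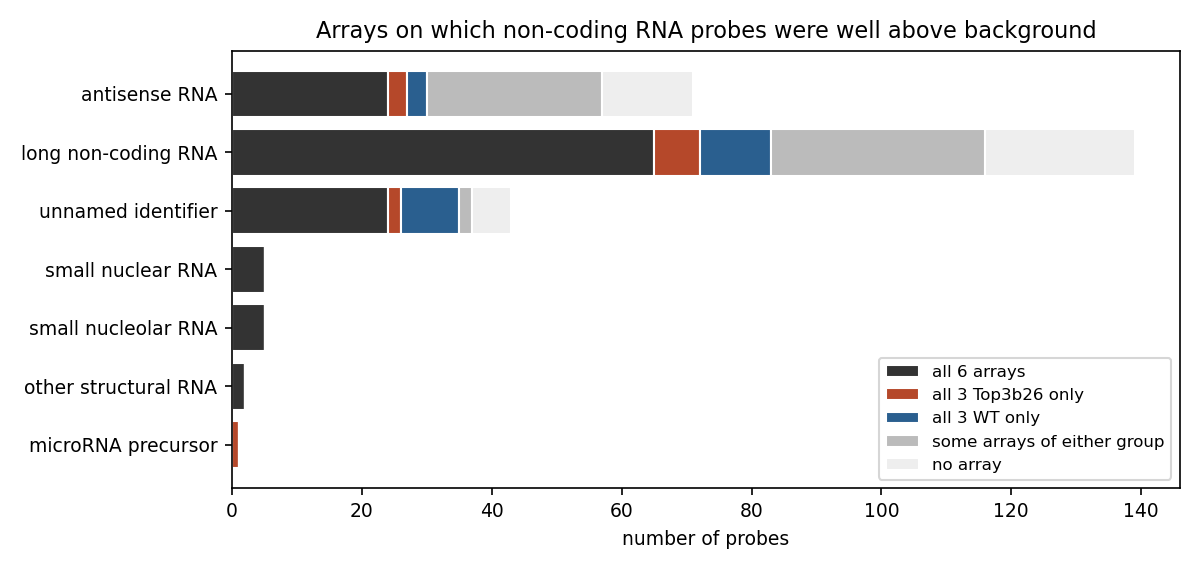
Number of non-coding RNA probes (x axis) in each class (y axis), divided by the arrays on which they were well above background. All 12 probes for small nuclear, small nucleolar and other structural RNAs were above background on all 6 arrays, whereas 41 of 71 antisense RNA probes were on all arrays of neither group.

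At an adjusted p of 0.05 or less in limma, 3 members were called, all lower in Top3b26, which is 1.86% of those tested where 0.882% of all 23013 tested probes were called. These 3 probes stand for asRNA:CR44030 and an unnamed identifier, NR_073832, with 2 probes. All 3 entered the test only through WT, where they were high, and the NR_073832 probes were well above background on no Top3b26 array. Their direction is therefore a description, and their fits rest partly on readings below background. At a false discovery rate of 0.3 and a fold change of 1.5, 18 members passed (11.2%, against 6.07% of all tested probes). These are 2 of the limits in the methods, called the looser limits here. The others were not applied. They were on the unadjusted p of another test, on detection, on the p of an analysis of variance between groups and on the mean signal of each group. Only lncRNA:CR43264 and the unnamed NR_073764, among the 18, had a mean level of 0 or more in both groups. Of the 18 members, 10 were higher in Top3b26 (6.21%, against 1.69% of all tested probes) and 8 were lower (4.97%, against 4.38%). This split moved with the scaling, to 4 higher and 7 lower after quantile normalization and 17 higher and 9 lower after the arrays were scaled to a common median difference. They stand for 16 genes or identifiers, 11 of them named. The median difference over the 161 tested members was 0.06, with 89 higher, while over all tested probes it was -0.15, with 8537 of 23013 higher. The 2 groups did not overlap at 28 members (17.4%, against 19.8% of all tested probes), 17 higher and 11 lower in Top3b26. The counts turned on single arrays. Without Top3b26 2, the dimmest array, 6 members were called and 76 passed the looser limits, and the share of all tested probes higher in Top3b26 moved from 37.1% to 25.2%. The counts were 1 and 12 without Top3b26 1, 1 and 9 without WT 1, 0 and 4 without WT 2, and 1 and 4 without WT 3. After normexp background correction 1 was called and 2 passed. With the slide as a block, 1 member was called and 8 passed the looser limits, 1 of them higher. Under these settings the shares over all tested probes were not counted, so these counts are not read as particular to the members. limma called none on slide 1 or slide 2 alone or without WT 2, where 17, 2 and 22 members had an unadjusted p under 0.05, against 27 with all arrays (16.8% of the tested members, against 11.2% of all tested probes). All 18 had the same sign on both slides. This had to follow, because at each of them all Top3b26 arrays lay on the same side of all WT arrays. The shared sign is therefore no separate check between slides.

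**Figure D2:**
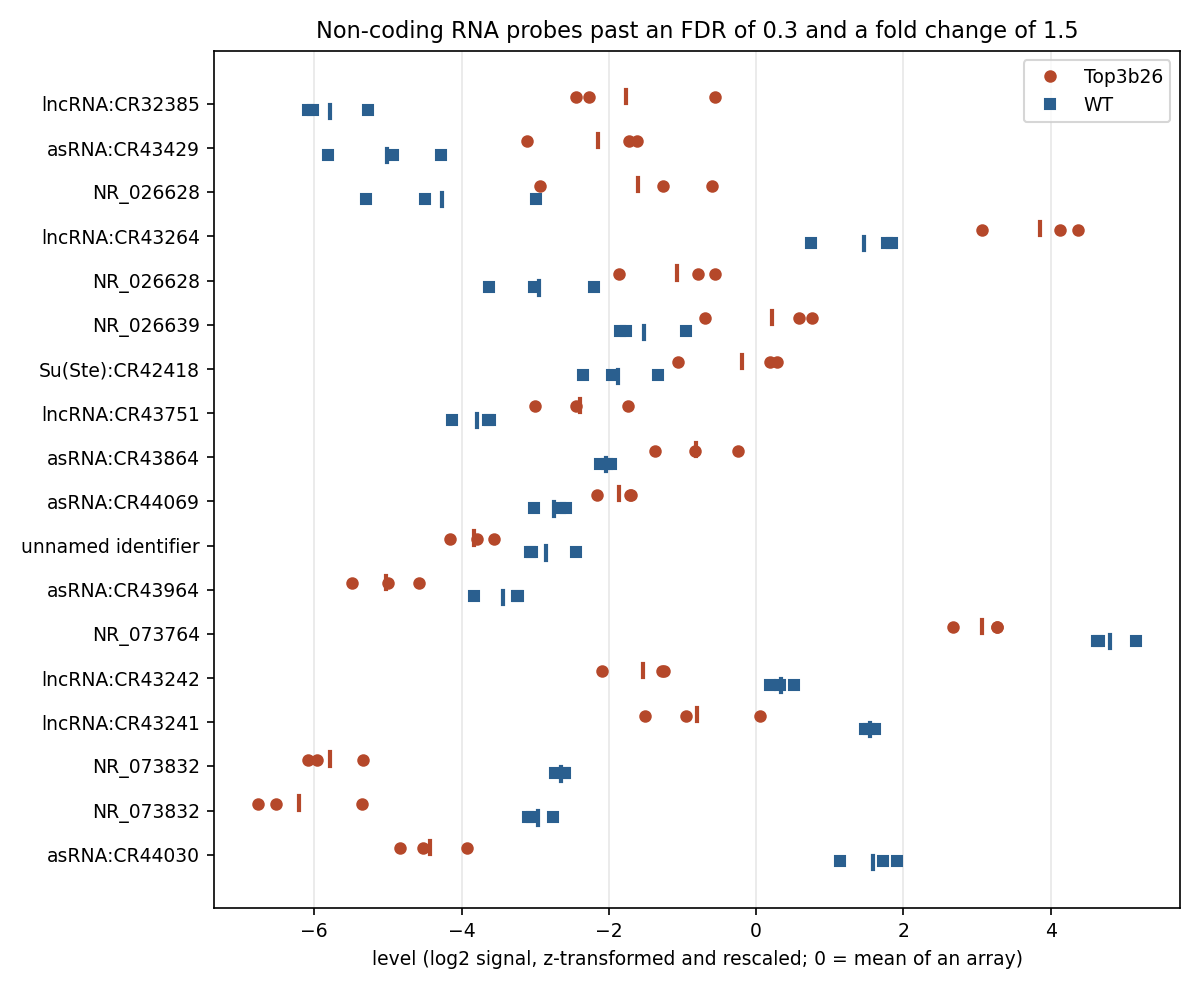
Level of each of the 18 non-coding RNA probes past the looser limits on every array (x axis, log2 scale), with Top3b26 as circles above WT as squares and a bar at each group's mean. The groups do not overlap in any row, and asRNA:CR44030 is at the bottom, with Top3b26 arrays between -4.83 and -3.93 and WT arrays between 1.14 and 1.91.

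The named RNA among the calls was asRNA:CR44030, an antisense RNA on chromosome 4 that overlaps fuss, a gene for a transcriptional co-regulator of the Ski and Sno family. Its levels were -4.52, -4.83 and -3.93 on Top3b26 1, 2 and 3 and 1.14, 1.72 and 1.91 on WT 1, 2 and 3. On Top3b26 1 and 2 it lay below the lowest level of a probe well above background, which was -4.42 and -3.33. Only 1 of the 3 Top3b26 values was flagged as well above background, while every WT value was above the array mean. With each Top3b26 array set no lower than the lowest level of a probe well above background on it, the RNA was 44.6-fold lower in Top3b26. The fitted difference was -6.02 ± 0.34 (SE, n = 3 each, limma adjusted p = 0.00403). It was -5.95 on slide 1 and -6.29 on slide 2, and it passed with the slide as a block (limma adjusted p = 0.034) but narrowly missed the threshold without WT 2 (adjusted p = 0.0501 in limma). After normexp background correction the difference was -3.18 on the log2 scale. The 44.6-fold, which is 5.48 on that scale, is thus no lower bound under every background correction. Next to it in the gene table lies lncRNA:sphinx, a young RNA gene linked to male courtship, which was bright in both groups, at 6.79, 7.10 and 6.31 in Top3b26 and 7.05, 7.23 and 6.88 in WT. The sphinx difference was -0.32 ± 0.27 (adjusted p = 0.75 in limma). The neighbouring non-coding RNA thus kept a strong signal on all mutant arrays. Of the other antisense RNAs on chromosome 4, asRNA:CR44029, asRNA:CR44031, asRNA:CR43425 and asRNA:CR43957 had differences of 0.50, 0.54, 0.18 and 0.10, none past the thresholds.

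The unnamed identifier NR_073832 was above background in WT heads only. Its first probe read -6.08, -5.33 and -5.97 on Top3b26 arrays, where it was not well above background, and -2.60, -2.73 and -2.62 on WT arrays. The second probe read -6.51, -5.36 and -6.76 in Top3b26 and -3.05, -3.10 and -2.76 in WT. Each Top3b26 value was therefore set no lower than the lowest level of a probe well above background on its array. The RNA was then 2.77-fold lower by the first probe and 2.21-fold lower by the second, and these folds were not tested. The fitted differences, which took the readings below background as they were, were -3.14 and -3.24 (limma adjusted p = 0.011 and 0.036). With the slide as a block both missed the threshold (adjusted p = 0.061 and 0.12 in limma), and so did the first without Top3b26 1 or any WT array (adjusted p between 0.075 and 0.11) and after normexp correction. Its difference after normexp correction was -0.77, a smaller change than 2.77-fold.

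At the looser limits only, 2 long non-coding RNAs, 2 unnamed identifiers and asRNA:CR43964, which is described further below, were lower. lncRNA:CR43241 on 2L, which overlaps the gene CG42748, had levels of -0.96, 0.06 and -1.50 on Top3b26 arrays and 1.49, 1.54 and 1.62 on WT arrays. The WT arrays lay close together while the mutant arrays spread more widely, all below them. The difference was -2.35 ± 0.42 (limma adjusted p = 0.092). lncRNA:CR43242, also on 2L but not adjacent, read -1.25, -1.28 and -2.09 in Top3b26 and 0.32, 0.19 and 0.52 in WT. Its difference was -1.88 ± 0.30 (limma adjusted p = 0.068). Among unnamed identifiers, NR_073764 was well above background throughout, at 3.27, 3.27 and 2.67 in Top3b26 and 4.62, 5.16 and 4.65 in WT, a difference of -1.74 ± 0.28 (limma adjusted p = 0.069). A further unnamed identifier differed by -0.98 ± 0.28. These 3 RNAs with differences of -1.74 to -2.35 passed the stricter threshold after the arrays were scaled to a common median difference (limma adjusted p between 0.021 and 0.025) but not after quantile normalization (between 0.085 and 0.19) or normexp correction (between 0.33 and 1.0).

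The antisense RNA asRNA:CR43964, which overlaps CG15093 on 2R, was well above background on all WT arrays and no Top3b26 array. It read -5.49, -5.00 and -4.58 in Top3b26 and -3.84, -3.25 and -3.24 in WT. With each Top3b26 array set no lower than the lowest level of a probe well above background on it, the RNA was 1.59-fold lower. It passed the looser limits, with a fitted difference of -1.58 (limma adjusted p = 0.13) that was -0.45 after normexp correction.

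The opposite pattern, signal on all mutant arrays and no WT array, was found for 3 RNAs, at 3 of 266 member probes against 109 of 32162 probes. Signal on all WT arrays and no mutant array was found at 3 member probes against 107 of all probes. Both kinds entered the test only through the group in which they were high, so their 1-sided detection is a description. lncRNA:CR32385 on 3L overlaps Galphai, which encodes a G protein subunit used in asymmetric cell division. Its levels were -2.27, -0.56 and -2.45 in Top3b26 and -6.01, -5.27 and -6.08 in WT. The mutant arrays were all above the lowest level of a probe well above background on them, and the WT arrays all under theirs. With WT arrays set no lower than that level, the RNA was 4.75-fold higher in Top3b26. Its adjusted p in limma was 0.052, and after normexp correction the fitted difference was 0.78 in place of 4.03 (limma adjusted p = 1.0). asRNA:CR43429, an antisense RNA that overlaps the importin gene Impbeta11 on 2R, read -3.11, -1.73 and -1.61 in Top3b26 and -4.27, -5.81 and -4.94 in WT. With WT arrays set in the same way it was 3.54-fold higher. Its fitted difference, without that setting, was 2.86 (limma adjusted p = 0.12), and it was 0.41 after normexp correction. lncRNA:CR33938, which lies among the Ccp84A cuticle protein genes on 3R, read -3.46, -2.32 and -4.23 in Top3b26 and -4.43, -3.46 and -5.03 in WT. With WT arrays set in the same way it was 1.53-fold higher, but the groups overlapped. The fitted difference of 0.97, without that setting, did not pass (limma adjusted p = 0.66).

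Other increases at the looser limits were in RNAs measured in both groups. lncRNA:CR43264 on the X read 3.07, 4.12 and 4.37 in Top3b26 and 1.78, 1.85 and 0.75 in WT, a difference of 2.39 ± 0.48 (limma adjusted p = 0.12). Every mutant array was above every WT array, and the difference was 1.25 on slide 1 and 3.5 on slide 2. lncRNA:CR43751 on 2L read -2.44, -1.73 and -3.0 in Top3b26 and -4.14, -3.64 and -3.61 in WT, where 1 of 3 arrays was well above background. Its difference was 1.40 ± 0.38 (limma adjusted p = 0.23). asRNA:CR43864, which overlaps Edem1 and CG32801 on the X, differed by 1.22 ± 0.32 and asRNA:CR44069, which overlaps the matrix metalloproteinase gene Mmp2, differed by 0.90 ± 0.24 (limma adjusted p = 0.23 and 0.24). Among unnamed identifiers, NR_026628 differed by 1.87 ± 0.51 and 2.67 ± 0.82 at its 2 probes, and NR_026639 by 1.74 ± 0.48.

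The Y-linked Su(Ste) repeats are known as sources of small RNAs that silence the Stellate genes in testis. Su(Ste):CR42418 read -1.06, 0.29 and 0.19 in Top3b26 and -2.35, -1.33 and -1.96 in WT. It differed by 1.68 ± 0.47 (limma adjusted p = 0.25), past the looser limits, and by 0.95 after normexp correction. Su(Ste):CR42406 read -3.60, -1.21 and -2.39 in Top3b26 and -4.70, -2.98 and -2.74 in WT, a difference of 1.07 ± 0.79 (limma adjusted p = 0.71) with groups that overlapped. The male-specific roX1 and roX2 probes, which were left out of the members, had medians of 4.69, 5.53 and 4.16 in Top3b26 and 4.03, 4.72 and 4.74 in WT. The part of the mix of sexes in the Y-linked values was not tested.

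Antisense RNAs were more often higher than lower in Top3b26. Of the 30 tested probes 22 were higher (73.3%), with a median difference of 0.54, against 37.1% of all tested probes and a median of -0.15. Most antisense probes were dim, and among the 7203 tested probes of any kind with a mean level below 0 the share was 55.3%, with a median of 0.09, against 22 of 28 antisense probes (78.6%, median 0.59). The antisense median stayed positive under every scaling, filter, slide and array left out, but ran from 0.17 after normexp correction to 0.73 after median-difference scaling. The gap to all tested probes also moved. After median-difference scaling 53.3% of all tested probes were higher, against 76.7% of antisense probes. Without Top3b26 2 the shares were 25.2% and 63.3%. The class holds no call in the higher direction, and at an unadjusted p under 0.05 it had 7 higher and 2 lower probes of 30, against 722 higher and 1849 lower of all 23013 tested. Beside those named above, asRNA:CR43464 differed by 1.40 ± 0.51, asRNA:CR42547 by 1.01 ± 0.31 and asRNA:CR43463 by 0.94 ± 0.33 (limma adjusted p = 0.39, 0.30 and 0.36), each without overlap between groups. The probes of asRNA:CR43159 had differences of 1.30 and 1.42. Without the 3 antisense probes that varied most between mutant arrays, 19 of 27 antisense probes were higher (70.4%, median 0.50). The long non-coding RNAs were split evenly, with 41 of 83 higher and a median of -0.00.

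**Figure D3:**
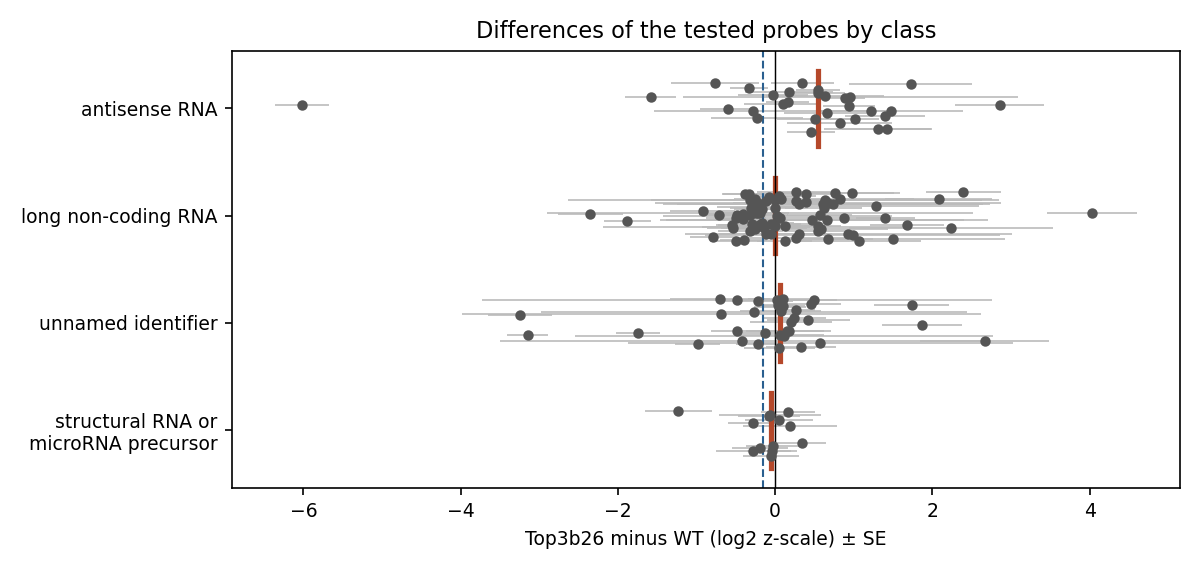
Difference between Top3b26 and WT (x axis, log2 scale) of each tested non-coding RNA probe with its SE, by class. Solid bars mark the class medians, 0.54 for antisense RNAs and -0.00 for long non-coding RNAs, and the dashed line is the median of all tested probes, -0.15.

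**Figure D4:**
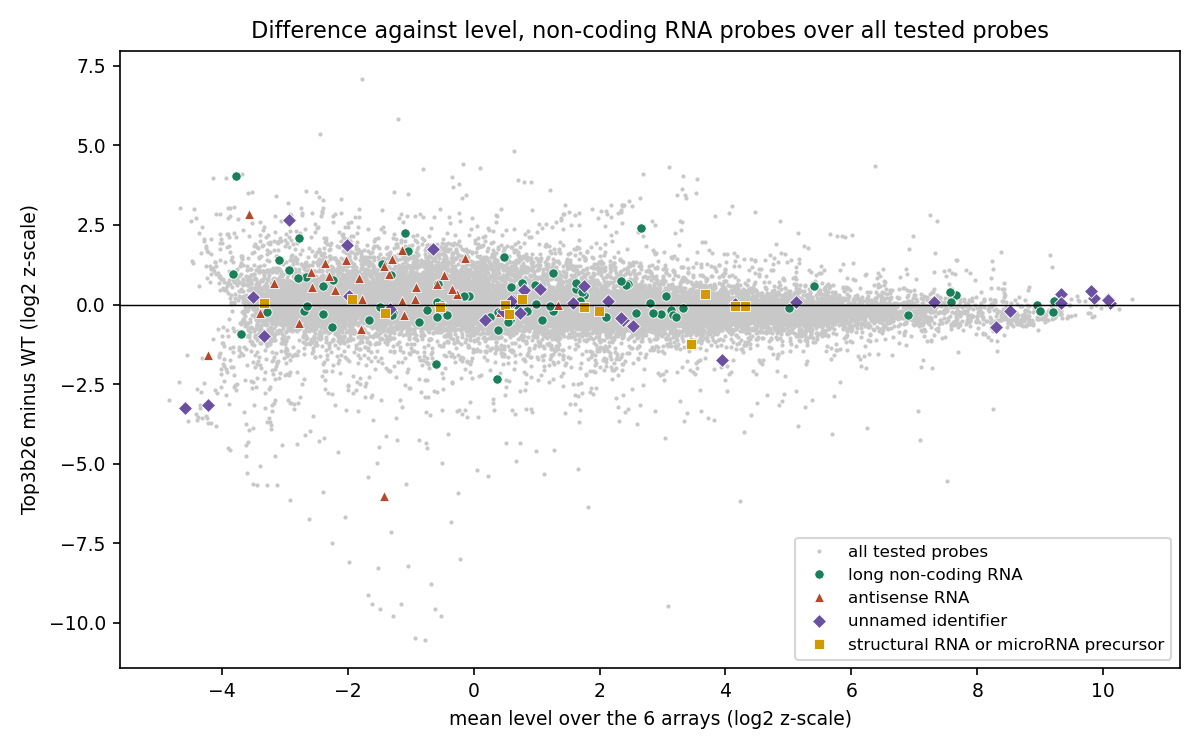
Difference between Top3b26 and WT (y axis) against the mean level over the 6 arrays (x axis), both on the log2 scale, for all 23013 tested probes in grey and non-coding RNA probes in colour. The non-coding RNAs with differences beyond 2 in size lie below a mean level of 3, and antisense RNAs sit mostly below 0.

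The RNAs of the splicing and ribosome-modifying machinery differed little. The probes for U1, U2, U11 and U12 small nuclear RNAs and for U3, pseudouridylation-guide and Cajal body RNAs had differences between -0.29 and 0.19, none past the thresholds. For example, snRNA:U2:34ABb read 4.06, 4.98 and 3.84 in Top3b26 and 4.06, 4.59 and 4.39 in WT. The labeling kit primes from poly(A) tails, which most of these RNAs lack. 7SLRNA:CR32864, the RNA of the signal recognition particle, read 3.63, 4.45 and 3.47 in Top3b26 and 3.47, 3.42 and 3.63 in WT (difference 0.34 ± 0.31, limma adjusted p = 0.76). RNaseMRP:RNA, the catalytic RNA of an enzyme that cuts ribosomal precursors, read 2.33, 3.56 and 2.64 in Top3b26 and 4.16, 3.53 and 4.53 in WT. It differed by -1.23 ± 0.43, but Top3b26 2 lay above WT 2 and the adjusted p in limma was 0.36.

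Host transcripts of small RNAs were likewise without a call. Of 18 probes for genes that overlap a microRNA or are one, 14 were tested, 5 of them for lncRNA:Hsromega, with differences from -0.50 to 0.67. None passed the looser limits, but 14 probes are too few to set this apart from the 6.07% of all tested probes. The tested genes include lncRNA:CR43334, which holds the growth regulator bantam, at 2.96, 3.52 and 2.57 in Top3b26 and 3.33, 3.41 and 3.45 in WT (difference -0.39 ± 0.29, limma adjusted p = 0.71). They also include lncRNA:CR43459 with mir-277 and mir-34, lncRNA:CR43650 with mir-8 and lncRNA:CR31044 with mir-279 and mir-996. Of the small nucleolar RNA host genes, Uhg2 read 0.12, 0.35 and -0.50 in Top3b26 and 0.96, 0.48 and 0.88 in WT. Its groups did not overlap, but the difference of -0.79 ± 0.30 did not pass (limma adjusted p = 0.41), and the Uhg3 and Uhg5 probes differed by -0.12 to -0.33. asRNA:CR31144, which overlaps a pair of small nucleolar RNA genes, had a difference of 1.48 ± 0.91 (limma adjusted p = 0.65). lncRNA:cherub, known to be shared out unevenly when neuroblasts divide, had a difference of -0.72 ± 0.25 (limma adjusted p = 0.35).

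lncRNA:Hsromega, a nuclear RNA that organizes omega speckles and is induced by heat shock, was represented by 5 probes. At its brightest probe it read 7.72, 8.63 and 7.08 in Top3b26 and 7.49, 7.69 and 7.34 in WT. All 5 probes were highest on Top3b26 2, and WT arrays lay closer together. The 5 differences were between 0.06 and 0.67, none past the thresholds, and that of the brightest probe became -0.10 without Top3b26 2. Among the 8 genes with the brightest probes, 6 were unnamed identifiers, with levels between 8.56 and 11.0 and differences between 0.06 and 0.42. The other two were lncRNA:CR40469 on the X, at 9.60, 10.0 and 8.24 in Top3b26 and 9.60, 9.44 and 8.44 in WT, and lncRNA:mimi on 3R, at 9.30, 9.66 and 8.29 in Top3b26 and 9.55, 9.50 and 8.92 in WT. Neither difference (0.12 ± 0.56 and -0.24 ± 0.42) exceeded the spread between arrays.

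A set of members varied more between samples of 1 group than between the groups. At 25 tested probes (15.5%, against 8.63% of all tested probes), for 17 genes or identifiers, Top3b26 3 was above Top3b26 2 by more than 3, and at 0 members was it the other way (0.943% of all tested probes). This set was chosen for that gap after the values were seen, and is given as a description with no test. lncRNA:CR32661 on the X read 3.38, -4.96 and 5.07 on Top3b26 1, 2 and 3 and 3.23, -0.32 and 1.14 on WT 1, 2 and 3. The mutant arrays thus ran both above and below all WT arrays, and the difference of -0.19 ± 2.71 is smaller than its error. lncRNA:CR43835 read 2.96, -3.99 and 4.36 in Top3b26 and 1.56, -0.52 and 0.26 in WT. lncRNA:CR32690 read 1.48, -5.27 and 3.03 in Top3b26 and 0.55, -2.07 and -1.15 in WT. All 25 were highest on Top3b26 3, 22 were lowest on Top3b26 2, and WT 1 was the highest WT array at all 25. At 16 of the 25, Top3b26 2 was not well above background, so their gaps were measured against a reading at background. At the limit lay asRNA:CR31144 and asRNA:CR43426, both with a gap of 3.16, and just outside it lncRNA:CR43282 with 2.86.

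Of these probes 11 are X-linked, out of 21 tested X-linked members (52.4%), against 8 of 105 on other named chromosomes (7.62%). Some genes have several of these probes, and by gene the X-linked count is 7 of 17 tested. The X-linked share among all tested probes with this gap was not counted. The 7 X-linked genes are lncRNA:CR32657 and its neighbour lncRNA:CR32658, which overlap Ten-a, with lncRNA:CR32661, lncRNA:CR32690, lncRNA:CR33218, lncRNA:CR42767 and lncRNA:CR43835. The 3 probes of lncRNA:CR32658 gave the same picture, with gaps of 7.37, 7.34 and 7.29. Some of the others overlap genes for hairpin RNAs, from which small interfering RNAs are cut. lncRNA:CR43939, over hpRNA:CR46340, read 0.61, -5.56 and 2.39 in Top3b26 and -0.67, -3.01 and -1.68 in WT, and lncRNA:CR44175, over hpRNA:CR46343, read 0.44, -2.56 and 2.19 in Top3b26 and -0.96, -3.35 and -2.34 in WT. The difference of lncRNA:CR44175, 2.24 ± 1.30, was far from a call (limma adjusted p = 0.62), as was that of lncRNA:CR43654, 2.08 ± 0.68 (limma adjusted p = 0.33), which did not vary in this way. None of the 25 probes was called, and the smallest adjusted p in limma was 0.51.

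Probes named after cDNA clones of adult testis (80 of 142 tested) moved with this set. Their medians were 0.94, -1.70 and 1.94 on Top3b26 1, 2 and 3 and 0.28, -1.0 and -0.61 on WT 1, 2 and 3, and 33 of the 80 had Top3b26 3 above Top3b26 2 by more than 3, against 9 of 224 probes named after head clones. The part of tissue other than heads, or of the mix of sexes, in these levels was not tested. Wider spread between mutant arrays was not limited to the members. The SD between Top3b26 arrays exceeded that between WT arrays at 145 of 161 members, a count not made over all tested probes. The median SDs were 0.75 and 0.34 for members, against 0.54 and 0.23 over all tested probes. The part of Top3b26 2, the dimmest array, in this spread was not tested.

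**Figure D5:**
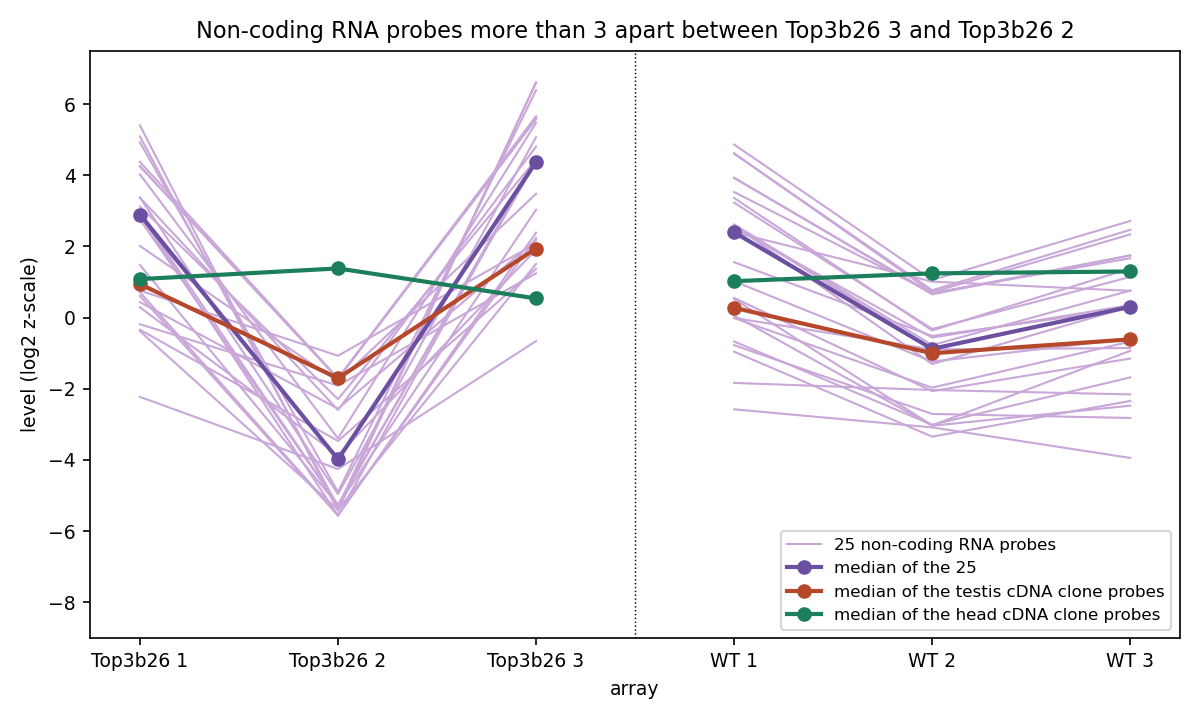
Level (y axis, log2 scale) on each array (x axis) of the 25 non-coding RNA probes with Top3b26 3 above Top3b26 2 by more than 3 (thin lines, each joining the values of 1 probe), with their median and the medians of probes named after testis and head cDNA clones. The thin lines and the testis clone median are low on Top3b26 2 and high on Top3b26 3, whereas the head clone median runs from 0.54 to 1.38.

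Where a gene had several tested probes, they mostly gave the same value. For 19 genes or identifiers with 2 or more tested probes, the differences had the same sign at 16 and lay within 0.5 of each other at 14, with a median gap of 0.18.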

How the data were processed

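The deposited scanner files give intensity values, which are Cy3 signals that Feature Extraction 11.5.1.1 had background-subtracted and detrended within each array per the file headers. The authors also deposited score values, z-scores of log signal, used here only as an alternative. The log2 signal of each array was z-transformed over the non-control spots, where the authors z-transformed all spots, and rescaled by an SD of 3.89, the average of the arrays. Outlier spots were left out and spots of a probe averaged. The 23013 probes flagged as well above background throughout Top3b26, throughout WT or both were fitted together in limma 3.58.1 (R 4.3.3), with Benjamini-Hochberg adjustment over all of them (the methods' z-test and filters were not run), and 58 probes, among them lncRNA:CR43837 and lncRNA:alphagamma-element:CR32865, lacked a value on some array. No mean spot signal was in the files, so normexp correction started from the median spot signal. Gene names came from RefSeq accessions and class from the same table, and coordinates were not printed because the array design cites an older build. The text names members past a threshold, the brightest, the most changed, the most variable, those above background in 1 group alone, and listed RNA classes. Members, lists and rule were chosen with earlier results of these data known. Precision is limited by having 3 arrays a group.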

Additional observations from a re-analysis of the deposited data

How the results depend on the processing

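The count of called probes, 3 in the fit reported, was 7 after a 75th percentile shift, 8 after median-difference scaling and 8 after cyclic loess, and 5 with an intensity trend, but 1 after normexp correction, 1 with the slide as a block and 0 on slide 1 or slide 2 alone. A plain 2-group test gave 20 unadjusted and 2 after Benjamini-Hochberg adjustment. The count at a false discovery rate of 0.3 and a fold change of 1.5, 18 in the fit reported, was 11 after quantile normalization, 2 after normexp correction, 10 with no filter on dim probes, 10 among probes well above background on all 6 arrays, 8 with the slide as a block, 3 on slide 1 and 0 on slide 2, and 2 with a mean level of 0 or more in both groups, a limit added after seeing the data. Leaving out 1 array gave 0 to 6 calls, 4 to 76 probes at these looser limits and a median difference of -0.23 to 0.16. The shares of all tested probes called or past these limits were not counted under the other settings. The share of higher probes at these limits also moved with the scaling, from 10 of 18 to 4 of 11 after quantile normalization and 17 of 26 after median-difference scaling. Same-numbered arrays of the groups did not all deviate together (their deviations from the group means correlated at 0.56, 0.59 and -0.37), which neither shows nor excludes a pairing by number. With the replicate block 1 probe was called and 11 passed these looser limits. asRNA:CR44030 missed the threshold on each slide alone and without WT 2, and the first probe of NR_073832 on each slide alone, under both blocks, after normexp correction and without Top3b26 1 or any WT array. Differences that turned sign were those of lncRNA:CR40469 (-0.24 after normexp), lncRNA:mimi (0.051 on slide 2), lncRNA:CR32661 (0.91 after normexp, 0.42 with the slide as a block, 1.92 on slide 1) and lncRNA:CR43835 (-0.073 on slide 2), and with 1 array left out those of lncRNA:CR40469 (-0.24 to 0.64), lncRNA:mimi (-0.53 to 0.16), lncRNA:CR32661 (-2.14 to 2.87), lncRNA:CR43835 (-0.95 to 3.23), lncRNA:CR32690 (-1.01 to 3.14), lncRNA:CR43939 (-0.69 to 3.29) and lncRNA:Hsromega (-0.10 to 0.67). The cause was not tested.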

Other observations

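Some dim probes stood high on single arrays. The probe for lncRNA:CR43626, which holds mir-282, read -0.68 on Top3b26 2 and -5.97 and -5.17 on the other mutant arrays, against -0.89 on WT 3 and -4.45 and -5.27 on the other WT arrays. asRNA:CR44054 read -3.62, -3.0 and -3.96 in Top3b26, against -0.32 on WT 2 and -5.11 and -4.33 on WT 1 and WT 3.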
